A study of Homo sapiens with 9 samples.

Results

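The data are chromatin immunoprecipitation sequencing (ChIP-seq) peaks of p65 and TEAD around 3 growth factor signalling genes, EGFR, TGFA and MET, in 786-O cells. 786-O is a human cell line established from a clear cell renal carcinoma. A peak was a member when its summit lay in 1 of 3 windows of build hg19: EGFR on chromosome 7 from 55030000 to 55330000, TGFA on chromosome 2 from 70640000 to 70830000, and MET on chromosome 7 from 116260000 to 116490000. Of the 60345 peaks in the 5 deposited lists, 106 were members. The lists are p65 in cells labelled siTEAD4 (an siRNA against TEAD, given as siTEAD in the treatment label), p65 in control cells, p65 in cells given XMU-MP-1 (a compound that inhibits MST1 and MST2, kinases of the Hippo pathway), p65 in vehicle cells, and TEAD in XMU-MP-1 cells. With 1 library per condition, nothing below is checked by replicates, and no p-value is printed. Peak identifiers of the list labelled siTEAD4 carry the name p65_Vert, which is in no label, so its treatment rests on the sample label. Which TEAD protein the antibody binds is not in the labels.

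EGFR is a receptor tyrosine kinase of the plasma membrane, and TGFA, cut from a membrane-bound precursor, is one of the ligands that activate it. MET is the receptor tyrosine kinase for hepatocyte growth factor. In clear cell renal carcinoma, where loss of VHL stabilises hypoxia-inducible factors, TGFA is a known target of those factors and signals back to EGFR on the same cells. p65 (RELA) is the subunit of NF-κB that carries its activation domain, and TEAD proteins are the DNA-binding partners of YAP, which the kinases MST1 and MST2 restrain.

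No hg19 genome or annotation was used here, so exons and introns were not assigned and the bases under the peaks are not shown. The sequences shown instead are the 250 bases before the outermost RefSeq start of each gene (build GRCh38.p14, whose positions cannot be set beside the hg19 peaks), because p65 or TEAD peaks near a gene start are part of the results. Capitals mark an NF-κB consensus match, a TEAD core (GGAATG) or an AP-1 site (TGANTCA), searched on both strands, with no overlap between matches.
TGFA, chr2:70553827-70554076, minus strand: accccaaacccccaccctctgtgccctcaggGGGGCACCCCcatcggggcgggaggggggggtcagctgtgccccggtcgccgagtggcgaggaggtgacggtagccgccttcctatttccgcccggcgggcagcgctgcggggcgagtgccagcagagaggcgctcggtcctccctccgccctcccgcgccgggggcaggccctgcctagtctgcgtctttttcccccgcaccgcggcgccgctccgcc
MET, chr7:116671946-116672195, plus strand: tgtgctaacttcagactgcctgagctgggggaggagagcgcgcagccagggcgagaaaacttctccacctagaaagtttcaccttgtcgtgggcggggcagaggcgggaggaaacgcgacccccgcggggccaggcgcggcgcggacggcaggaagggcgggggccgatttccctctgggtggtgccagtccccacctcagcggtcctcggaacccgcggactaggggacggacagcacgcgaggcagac
EGFR, chr7:55018767-55019016, plus strand: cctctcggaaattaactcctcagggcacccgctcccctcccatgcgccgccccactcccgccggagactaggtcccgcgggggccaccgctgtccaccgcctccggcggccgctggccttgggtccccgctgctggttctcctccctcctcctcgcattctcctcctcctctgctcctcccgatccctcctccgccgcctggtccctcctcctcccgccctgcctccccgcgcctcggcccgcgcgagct

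The TGFA sequence held 1 NF-κB consensus match, from base 32 to base 41, and no TEAD core or AP-1 site. The MET and EGFR sequences held none of the 3 motifs. Among the 35116 RefSeq promoters of the same length, 9.96% held the NF-κB consensus, 11.9% the TEAD core and 6.57% the AP-1 site. GC content was 75.6% for TGFA, 68.4% for MET and 73.6% for EGFR. A second RefSeq start of EGFR, with 38.8% GC, had 2 AP-1 sites and 1 TEAD core, and the second start of TGFA had no match.

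The 3 windows held 4 p65 peaks in the list labelled siTEAD4 and 31 in the control list, 5 with XMU-MP-1 and 30 with vehicle, and 36 TEAD peaks. The whole lists held 1813 siTEAD4-labelled and 15465 control peaks, and 1649 XMU-MP-1 and 17958 vehicle peaks. The members were thus 0.221% of the siTEAD4-labelled and 0.20% of the control list, and 0.303% of the XMU-MP-1 and 0.167% of the vehicle list. The smaller numbers in the treated lists go with smaller whole lists, and the windows do not stand apart in this. EGFR had most of them: 2 siTEAD4-labelled and 20 control peaks, 3 XMU-MP-1 and 17 vehicle peaks, and 17 TEAD peaks. MET had 1 siTEAD4-labelled and 6 control peaks, 1 XMU-MP-1 and 8 vehicle peaks, and 12 TEAD peaks. TGFA had 1 siTEAD4-labelled and 5 control peaks, 1 XMU-MP-1 and 5 vehicle peaks, and 7 TEAD peaks. Per 100 kb this comes to 6.67 control p65 peaks in the EGFR window, 2.63 in the TGFA window and 2.61 in the MET window. For vehicle p65 the densities were 5.67, 2.63 and 3.48 per 100 kb in the same order. What sets these densities was not tested. For TEAD the densities were closer, at 5.67, 3.68 and 5.22 per 100 kb in the same order of windows.

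**Figure D1:**
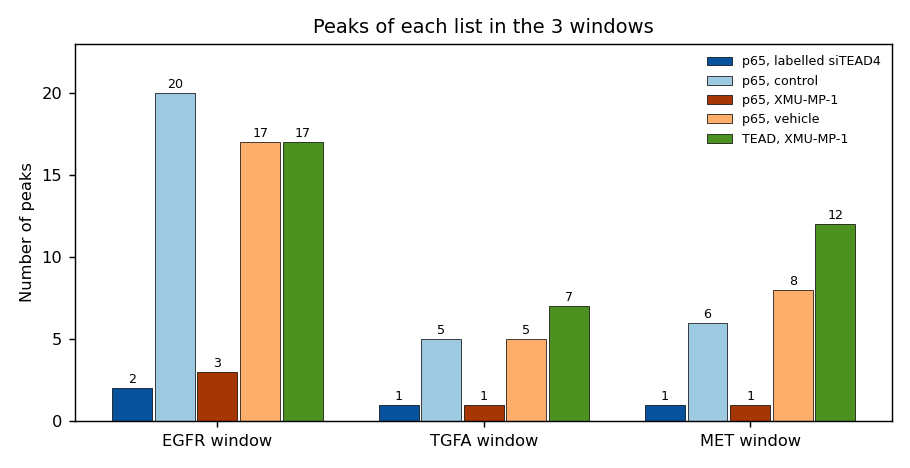
Number of deposited peaks (vertical axis) with a summit in the EGFR, TGFA and MET windows, 1 bar per list and library. Both treated p65 lists hold 1 to 3 peaks per window, against 5 to 20 in the control and vehicle lists; the whole lists differ in the same direction (1813 against 15465 peaks, and 1649 against 17958).

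When peaks that shared at least 1 bp were joined, the 106 peaks formed 47 sites, 25 in the EGFR window, 7 in the TGFA window and 15 in the MET window, numbered here by position. Of the 47, 22 had p65 and TEAD, 12 had p65 without TEAD, and 13 had TEAD without p65. In the TGFA window all 5 p65 sites had a TEAD peak, where 47.4% of all control and 45.6% of all vehicle peaks had one; with 5 control peaks the interval runs from 56.6% to 100%. In the MET window 7 of 15 sites had TEAD alone, and 5 of 12 TEAD peaks had a vehicle p65 peak (41.7%, 19.3 to 68.0), near the 34.5% of the whole TEAD list. In the EGFR window 12 sites had both, 9 had p65 alone and 4 had TEAD alone. No test between the genes was made.

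The control and vehicle lists, from cells with neither treatment, coincided at most p65 sites of the 3 genes. Of the 31 control peaks 26 had a vehicle peak (83.9%, 95% Wilson interval 67.4 to 92.9), beside 79.5% of the whole control list. Of the 30 vehicle peaks 27 had a control peak (90.0%, 74.4 to 96.5), beside 68.5% of the whole vehicle list. These intervals cover only the counting of peaks. The 5 sites with p65 in the control but not the vehicle list had control folds of 3.0 to 7.77. The 3 with p65 in the vehicle but not the control list had vehicle folds of 3.24 to 4.88. Some of these sites also had a TEAD peak. The fold is the authors' enrichment of a summit over the local background of its own library, so it ranks peaks within a list and shows no change between lists.

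Under the siTEAD4 label, 4 of the 31 control peaks had a p65 peak (12.9%, 5.13 to 28.9) and 27 had none. In the whole control list 11.2% had one, so the share near the 3 genes was close to that of the list. The vehicle peaks gave a like value, 4 of 30 (13.3%, 5.31 to 29.7), beside 9.77% of the whole vehicle list. With XMU-MP-1, 5 of the 30 vehicle peaks had a p65 peak (16.7%, 7.34 to 33.6) and 25 had none, beside 8.77% of the whole vehicle list, which lies inside the interval. All 4 siTEAD4-labelled peaks lay on control peaks and all 5 XMU-MP-1 peaks on vehicle peaks, as did 96.3% and 95.7% of the peaks in those whole lists. No p65 site near these genes was found in a treated list alone.

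The treated p65 peaks fell on 5 sites: EGFR sites 4, 10 and 19, TGFA site 4 and MET site 13. The list labelled siTEAD4 held every one of them except EGFR site 19, and the XMU-MP-1 list held all 5. TEAD was called at all 5. These were the only sites of the 3 windows with p65 in a treated list, and none of them lacked TEAD. In the whole lists 71.6% of siTEAD4-labelled and 75.2% of XMU-MP-1 p65 peaks had a TEAD peak, so shares of 4 of 4 (51.0 to 100) and 5 of 5 (56.6 to 100) do not stand apart from the background at this number of peaks.

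**Figure D2:**
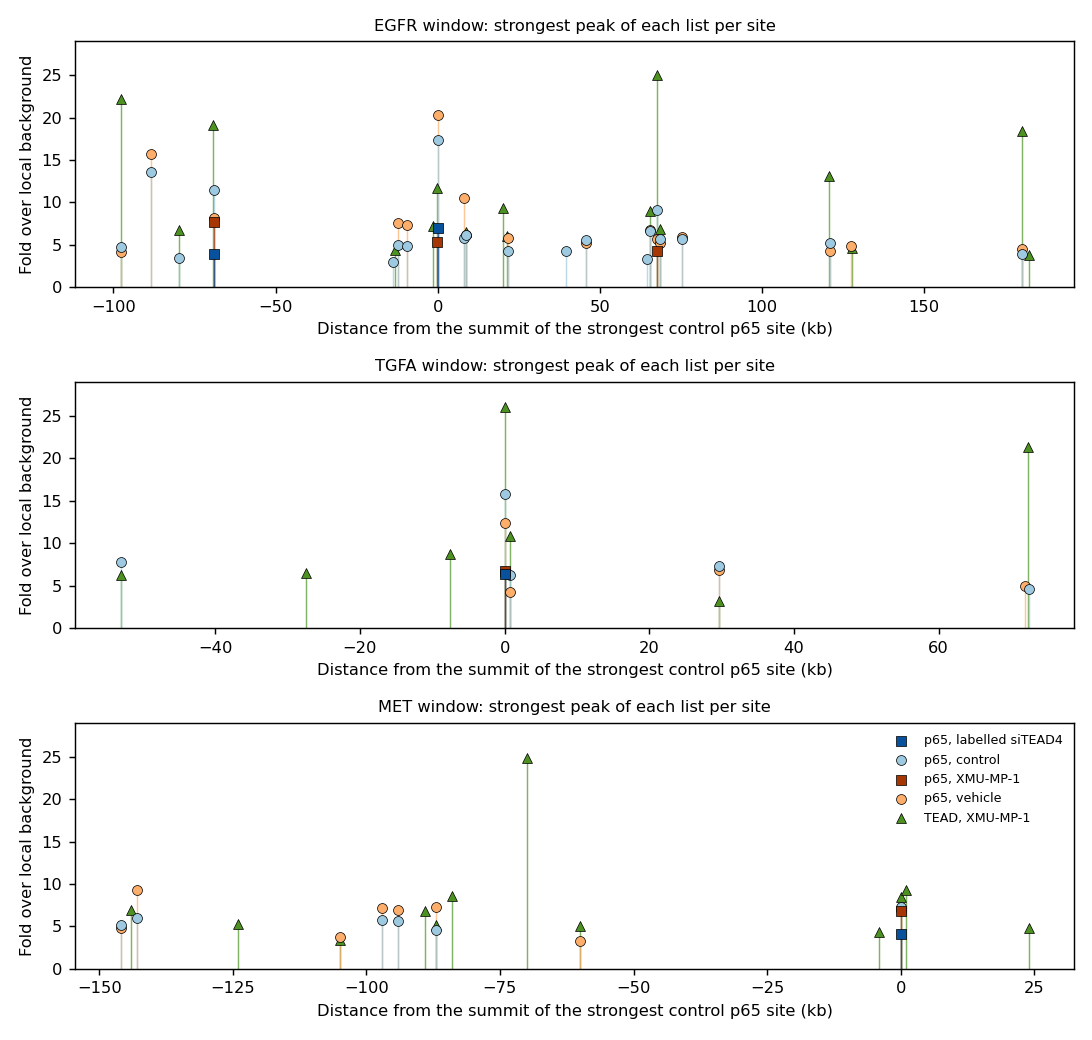
Fold over local background (vertical axis) of the strongest peak of each list at each site, against the distance in kb from the summit of the strongest control p65 site of the window, for EGFR (top), TGFA (middle) and MET (bottom). Dark squares are peaks of the treated p65 lists, pale circles those of the control and vehicle lists, and triangles TEAD. The squares lie at 3 sites in the EGFR window and at 1 site in each of the others, each with a triangle.

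EGFR site 10, on chromosome 7 from 55132608 to 55133996, had the highest p65 fold of the 3 windows in both untreated lists. Its p65 fold was 7.03 under the siTEAD4 label and 17.3 in control cells, 5.35 with XMU-MP-1 and 20.3 with vehicle. TEAD was called in 2 peaks there, the stronger with a fold of 11.7. The fragments stacked at the p65 summit, recovered from the deposited fold and p-value, numbered 56 under the siTEAD4 label (exact 95% Poisson interval 42.3 to 72.7) and 146 in control cells (123.3 to 171.7). They numbered 48 with XMU-MP-1 (35.4 to 63.6) and 95 with vehicle (76.9 to 116.1). These intervals cover counting error only, and a summit is by choice the highest point of its peak. Read totals are not in the lists. As a guide to depth, the median local background under all peaks was 4.40 fragments under the siTEAD4 label against 4.10 in the control. For XMU-MP-1 it was 4.10, against 2.13 for vehicle. The smaller number of fragments at EGFR site 10 in each treated list stands beside a median background no lower than that of its untreated counterpart. These medians are over different sets of peaks, 1813 against 15465 and 1649 against 17958, so they are only a rough guide. The part of depth in these counts was not tested.

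EGFR site 4, from 55063282 to 55064109, gave p65 folds of 3.95 under the siTEAD4 label against 11.4 in control cells, and of 7.72 with XMU-MP-1 against 8.13 with vehicle. Its TEAD fold was 19.1. Fragments at the p65 summit were 31 under the siTEAD4 label and 79 in the control, and 48 with XMU-MP-1 and 59 with vehicle. The order of EGFR sites 4 and 10 by fold thus differed between lists: site 10 was above site 4 in 3 of the 4 p65 lists and below it with XMU-MP-1. There both summits had 48 fragments, over a local background of 5.11 fragments at site 4 and 7.93 at site 10, so in that list these sites differ in background and not in the number of fragments.

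EGFR site 19, from 55200328 to 55200966, was called with XMU-MP-1 (fold 4.26, 27 fragments) and vehicle (5.73, 23 fragments), and in the control (9.12, 57 fragments), but not under the siTEAD4 label. It carried the highest TEAD fold of the EGFR window, 25.0 with 87 fragments. Its XMU-MP-1 p65 fold was among the lower ones of that list, where 89.3% of peaks ranked at or above it.

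TGFA site 4, on chromosome 2 from 70751272 to 70751894, was the strongest p65 site of its window in the control and vehicle lists. In both treated lists it was the only p65 site of the window. Its p65 folds were 6.31 under the siTEAD4 label and 15.8 in the control, and 6.78 with XMU-MP-1 and 12.4 with vehicle. It also had the highest TEAD fold of all 3 windows, 26.0. The summit held 30 fragments under the siTEAD4 label and 106 in control cells, and 42 with XMU-MP-1 and 44 with vehicle. The local background at that summit was 5.11 fragments with XMU-MP-1 and 2.63 with vehicle, so like counts gave unlike folds. The p65 summits lay 14 to 39 bp from the TEAD summit in the 4 p65 lists.

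MET site 13, on chromosome 7 from 116416560 to 116417229, gave p65 folds of 4.10 under the siTEAD4 label and 7.31 in the control, and of 6.78 with XMU-MP-1 and 6.91 with vehicle. Its TEAD fold was 8.50, the lowest of the 5 sites. There were 23 fragments at the siTEAD4-labelled summit and 73 at the control summit, which lay 208 bp apart, so these counts are not from 1 position, and the peaks no longer count as shared when summits must lie within 200 bp. There were 42 fragments with XMU-MP-1 and 50 with vehicle, at summits 26 bp apart. These counts are not scaled for depth, and the median background of the XMU-MP-1 list was the higher one. The XMU-MP-1 peaks of TGFA site 4 and MET site 13 have the same deposited fold and p-value, so both solve to 42 fragments over a background of 5.11.

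**Figure D3:**
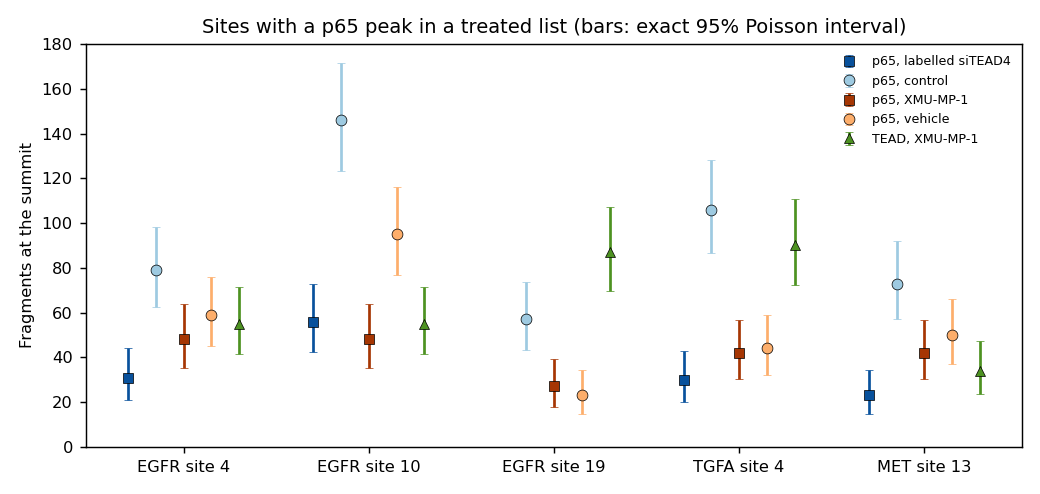
Fragments at the summit of the strongest peak of each list (vertical axis, counts recovered from the deposited values) at the 5 sites with a p65 peak in a treated list; bars are exact 95% Poisson intervals of that count in 1 library. The siTEAD4-labelled counts lie below the control counts at the 4 sites called there. Over all peaks the median count was 28 in the list labelled siTEAD4 and 34 in the control list. How often the count was lower over all shared peaks of these lists was not computed. Counts are not scaled for depth, so no distance between lists is to be read as drawn. The median background under all peaks was 4.10 fragments for XMU-MP-1 against 2.13 for vehicle.

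Sites with a treated p65 peak were mostly among the stronger sites of the control list. Ordered by −log10 q, the 6 strongest control sites of the 3 windows were EGFR site 10 (75.3), TGFA site 4 (53.9), EGFR site 2 (42.5), EGFR site 4 (33.2), MET site 13 (21.1) and EGFR site 19 (20.8). Of these 6, 5 had a TEAD peak, and these 5 had a treated p65 peak. The cut at 6 ends at the last control site with a treated peak, so this count is a description only. Shares for equally strong peaks of the whole control list were not computed, and a role of TEAD was not tested. The next control site, EGFR site 18 (15.2), had a TEAD peak and no treated p65 peak. Of the 6 strongest vehicle sites, 4 had a TEAD peak and a treated p65 peak and 2 had neither. EGFR site 19, called with XMU-MP-1, ranked only 17 of 29 in the vehicle list (−log10 q 9.68). The 1 site without TEAD among the 6 strongest control sites was EGFR site 2, from 55044284 to 55044701. This site had a control fold of 13.6 with 91 fragments and a vehicle fold of 15.7 with 65 fragments, and it had no TEAD peak and no peak in either treated list. It ranked within the strongest 8.03% of the whole control list and the strongest 5.32% of the whole vehicle list.

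In the vehicle list EGFR site 11, from 55140830 to 55141211, was a second such site. It had a vehicle fold of 10.6 and a −log10 q of 26.7, above the 24.0 of MET site 13, with no TEAD peak and no XMU-MP-1 p65 peak. Its control fold was 5.84. MET site 2, from 116273311 to 116273988, went the other way: it had a vehicle fold of 9.32, the highest of the MET window, and a TEAD fold of 6.94, but no treated p65 peak. Its control fold was 6.03. There the TEAD summit lay 391 bp from the control and 355 bp from the vehicle p65 summit.

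Counted over peaks, 4 of 18 control peaks with a TEAD peak had a siTEAD4-labelled peak (22.2%, 9.0 to 45.2), and 0 of 13 without one did, which allows a share of up to 23.1%. In the whole control list these shares were 17.3% and 5.79%. For XMU-MP-1, 5 of 21 vehicle peaks with a TEAD peak were called again (23.8%, 10.6 to 45.1) and 0 of 9 without one, which allows up to 33.3%. In the whole vehicle list they were 14.9% and 3.61%. The upper limits given for 0 peaks are 3 divided by the number of peaks, and are not Wilson limits. At these numbers of peaks no difference from the whole lists was detectable.

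TEAD itself was called at 18 of 31 control p65 peaks (58.1%, 40.8 to 73.6), beside 47.4% of the whole control list, and at 21 of 30 vehicle p65 peaks (70.0%, 52.1 to 83.3), beside 45.6% of the whole vehicle list. Of the 36 TEAD peaks, 21 had a vehicle p65 peak (58.3%, 42.2 to 72.9), beside 34.5% of the whole TEAD list, and 5 had an XMU-MP-1 p65 peak (13.9%, 6.08 to 28.7), beside 5.26%. These shares, the first excepted, are above those of the whole lists by more than their counting intervals. They are not separate results: both vehicle shares count largely the same overlaps from either side, and the XMU-MP-1 p65 peaks all lay on vehicle peaks. TEAD was measured in XMU-MP-1 cells only, while the control and vehicle p65 peaks come from cells without it. The intervals treat peaks as independent, which neighbouring peaks in 3 chosen windows need not be. The median TEAD peak was 473.5 bp long in the windows and 350 bp in the whole list. For vehicle p65 these lengths were 332 and 297 bp, and for XMU-MP-1 p65 332 and 334 bp. A longer peak meets the 1 bp rule more easily, and the part of length in these shares was not tested. By window, a vehicle p65 peak was at 12 of 17 TEAD peaks for EGFR (70.6%, 46.9 to 86.7) and 4 of 7 for TGFA (57.1%, 25.0 to 84.2). For MET it was at 5 of 12 (41.7%, 19.3 to 68.0). These intervals overlap, and the windows were not tested against each other. A control p65 peak was at 12 of 17 TEAD peaks in the EGFR window (70.6%) and 5 of 7 in the TGFA window (71.4%, 35.9 to 91.8). In the MET window it was at 2 of 12 (16.7%, 4.70 to 44.8), beside 30.9% of the whole TEAD list. The vehicle shares depend on what counts as shared: with summits within 200 bp, TEAD was at 50% of the 30 vehicle peaks, and 41.7% of the TEAD peaks had a vehicle peak. Among peaks whose −log10 q reached 10, these shares were 50% and 36%. The whole-list shares were not computed under either of these rules, so these values cannot be set beside the 45.6% and 34.5% above.

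**Figure D4:**
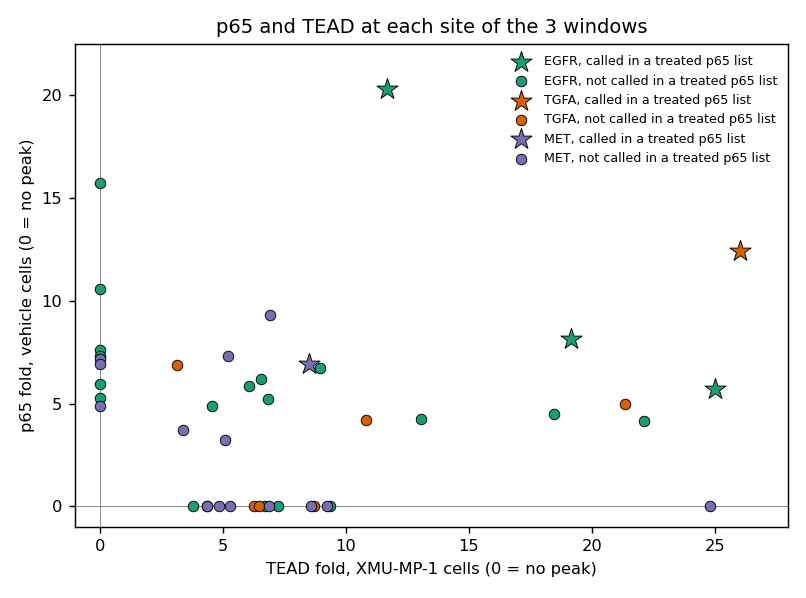
Vehicle p65 fold (vertical axis) against TEAD fold (horizontal axis) at the sites of the 3 windows with a peak in either list; 0 means no called peak. Stars mark the 5 sites with a p65 peak in a treated list; the sites on the vertical axis, with vehicle folds up to 15.7 and no TEAD peak, hold no star.

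High TEAD folds were also found at sites without p65, or with low p65 folds. MET site 10, from 116346549 to 116347105, had the highest TEAD fold of the MET window, 24.8 with 81 fragments, and no p65 peak in any list. EGFR site 1, from 55034851 to 55035560, had a TEAD fold of 22.1 with 104 fragments, the most of any TEAD summit in the 3 windows, over p65 folds of 4.77 (control) and 4.15 (vehicle). TGFA site 7, from 70823472 to 70824403, paired a TEAD fold of 21.4 with p65 folds of 4.65 (control) and 4.99 (vehicle). Neither EGFR site 1 nor TGFA site 7 had a treated p65 peak. The median TEAD fold was 19.1 (8.50 to 26.0) at the 5 sites with a treated p65 peak, against 7.94 (3.16 to 22.1) at the 12 sites with TEAD and both untreated p65 peaks but no treated one. The 5 sites also had the higher median p65 folds, 11.4 against 5.44 in the control list and 8.13 against 5.53 in the vehicle list. These medians were not computed for the whole lists, and the differences were not tested.

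The remaining named sites had middling values. TGFA site 5, from 70752108 to 70752637 and next to TGFA site 4, had a TEAD fold of 10.8 and p65 folds of 6.21 (control) and 4.20 (vehicle). TGFA site 1, from 70698292 to 70698667, had a control p65 fold of 7.77, a TEAD fold of 6.27 and no vehicle peak, with the control p65 and TEAD summits 1 bp apart. In the MET window, site 5 (116319611 to 116319932) had vehicle and control p65 folds of 7.14 and 5.76 and no TEAD peak, and site 8 (116329706 to 116330277) had 7.33 and 4.54 with a TEAD fold of 5.22. MET sites 9 (116332535 to 116333041) and 14 (116417638 to 116418161) had TEAD alone, with folds of 8.58 and 9.25.

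Near the gene starts the lists differed between the 3 genes. The placement of a start on hg19 in this paragraph is background knowledge of the gene models and was not checked against an annotation. The sequences printed above were not placed on hg19, so it is not known whether the NF-κB match of TGFA lies under a peak. TGFA site 6, from 70780960 to 70781417, lies at the start of TGFA. Its p65 folds were 7.35 (control) and 6.88 (vehicle), with a TEAD fold of 3.16, the lowest of the 3 windows, and no treated p65 peak. MET site 4, from 116312032 to 116312425, lies at the start of MET and had a vehicle p65 fold of 3.72 and a TEAD fold of 3.40, with 94.3% of the vehicle and 97.3% of the TEAD list ranked at or above them, and no control or treated p65 peak. The outermost start of EGFR, whose sequence is printed above, lies in a stretch of 54.9 kb, from 55064110 to 55118988, that held no peak of any list. The second RefSeq starts of EGFR and TGFA were not placed. The 5 sites with treated p65 peaks were away from the 3 starts placed here.

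Where p65 and TEAD shared a site, the median distance between their summits was larger than that between control and vehicle p65 summits, over different sets of sites. The median distance to the TEAD summit was 55.5 bp at 4 sites for the list labelled siTEAD4 and 74 bp at 19 sites for the control list. It was 47 bp at 5 sites for XMU-MP-1 and 88.5 bp at 20 sites for vehicle, against 33.5 bp between control and vehicle summits at 26 sites. The distances were within 50 bp at 3 of 5 XMU-MP-1 sites and at 6 of 20 vehicle sites. No test was made of these distances, and the sites overlap between lists. The 26 sites include 9 without TEAD, and only the strongest peak of each list was used at a site.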

How the data were processed

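The series has 9 ChIP-seq libraries, 4 of them input. Per the labels' protocols, fixation was 10 min in 1% formaldehyde, and libraries of 300 to 700 bp were selected. The submitters' processing notes name fastp, Bowtie2 (2.4.5), MACS2 and hg19; neither MACS2 settings nor which input was set against which library is stated. The values the authors deposited per peak are the fold enrichment (a ratio), −log10 p and −log10 q, and a score that was left unused. The lowest −log10 q of a list was 1.30 to 1.55.

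Peaks were matched by an overlap of at least 1 bp, with numpy 2.4.6, scipy 1.17.1 and pandas 2.3.3 under Python 3.11.15, tested on simulated data. Fragments at a summit were solved from fold = (fragments + 1) / (background + 1) and the Poisson p, as whole numbers, or as multiples of 0.587 in the control and 0.783 in the XMU-MP-1 list, and are given unscaled; in each list at least 99.9% of peaks could be solved, and 102 of the 106 members had 1 solution. Named sites are those with a treated p65 peak and, per window, the 3 of highest fold in the control, vehicle and TEAD lists; EGFR site 2 is among them. Positions are 1-based. The members and the rules were chosen with earlier results of these data known. A list of further pathway genes was not counted, as no hg19 gene positions were used.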

Additional observations from a re-analysis of the deposited data

How the results depend on the processing

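Shares and counts were recomputed 49 times: 41 values lay inside the 95% interval of the share given above, or within 1.5 times the count, and 8 lay outside. With summits within 200 bp, 50% of vehicle p65 peaks had a TEAD peak and 41.7% of TEAD peaks a vehicle p65 peak. With a −log10 q of at least 10 these shares were 50% and 36%, the windows held 59 peaks in all, 2 in the list labelled siTEAD4, 12 in the control list and 16 in the vehicle list. For the shares the cause was not tested, and the whole lists were not recomputed under these rules. The counts moved because that limit removes weaker peaks. Setting the vehicle list in place of the control list, chosen after seeing the data, gave 13.3% of peaks with a siTEAD4-labelled peak. Windows widened by 50 kb on each side held 113 peaks. The alternative for motifs under summits was left out, as no hg19 genome was used. No paired analysis was possible because there was a single library of every condition. A site missing from a list may have lain just under its threshold, and with 4 and 5 treated peaks most shares have wide intervals.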

Other observations

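The local background under the peaks was not the same at the 3 genes. In the EGFR window its median was 1.66 times that of the whole control list, 1.5 times that of the vehicle list and 1.62 times that of the TEAD list. In the MET window it was 1.49, 1.40 and 1.42 times, and in the TGFA window 0.969, 1.10 and 1.33 times, in the same order of lists. A higher background lowers the fold at a given number of fragments: EGFR site 16 had 46 control fragments and a fold of 5.52, and TGFA site 6 had 40 control fragments and a fold of 7.35. The part of this background in which sites were called was not tested.

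In RefSeq the protein-coding neighbours are SEC61G and LANCL2 for EGFR, FAM136A and ADD2 for TGFA, and CAV1 and CAPZA2 for MET, so a peak in a window may also lie near one of these genes. The last site of the MET window, site 15 from 116441087 to 116441364, had a TEAD fold of 4.86 and no p65 peak.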
